A study of Mus musculus with 3 samples.

Results

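Cells carrying transcripts of both Clec11a and Fmo2, the pair of genes that marks adipogenesis-regulatory cells (Aregs) of fat stroma, were picked out of single-cell libraries of mouse subcutaneous fat. Cells were chosen by their own UMI counts: a cell was counted as a Clec11a+ Fmo2+ cell when it held at least 1 UMI (unique molecular identifier, 1 counted transcript) of Clec11a, at least 1 of Fmo2, and no more than 1 each of Fabp4 and Dpp4. Of 34577 kept cells, 1322 met this rule, which is 3.82%. The libraries came from the inguinal depot of 3 wild-type C57BL/6J males aged 8 weeks, with 1 library per mouse and a single, untreated condition. Cells had been sorted as negative for the endothelial protein CD31 and the leukocyte protein CD45. The libraries held 95899433, 79801002 and 100846072 UMIs in mice 1, 2 and 3, and a cell was kept if it had over 500 genes and under 5% of its UMIs from mitochondrial genes. The Clec11a+ Fmo2+ cells held 1750547, 5310714 and 2486266 of those UMIs. They were compared with 5198 preadipocytes (PreAs; Icam1 plus Fabp4 at 4 UMIs or more, Dpp4 at 1 or fewer, no Clec11a) and 18986 progenitors (adipocyte stem cells, ASCs; Dpp4 plus Pi16 at 3 or more, Icam1 plus Fabp4 at 1 or fewer, no Clec11a). These cell names are names of gates, and the 6 gate genes were not tested. Counts were summed per mouse and cell type, so that each mouse gave 1 value, in counts per 1000000 UMIs (CPM).

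Fat stroma is usually described as a hierarchy in which Dpp4+ progenitors give rise to Icam1+ preadipocytes, which carry the adipogenic regulator Pparg and form adipocytes. Aregs, sorted by the surface protein CD142 that the F3 gene encodes (tissue factor, the starter of coagulation), are known from culture studies for holding back the differentiation of neighbouring cells through secreted factors. Clec11a encodes a secreted lectin known as a growth factor of the skeleton, and Fmo2 a flavin-containing monooxygenase. In the GENCODE annotation of GRCm38 the protein-coding gene Clec11a (ENSMUSG00000004473) lies on the minus strand of chromosome 7 from 44302687 to 44306902, Fmo2 (ENSMUSG00000040170) on the minus strand of chromosome 1 from 162874317 to 162898726, and F3 (ENSMUSG00000028128) on the plus strand of chromosome 3 from 121723537 to 121735048.

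The label was set beside 6 Areg markers that the gate did not use. Vit, which encodes the matrix protein vitrin, stood at 242, 251 and 273 CPM in mice 1, 2 and 3, against 11.6 to 23.5 CPM in PreAs and 15.3 to 20.8 CPM in ASCs. Mgp (matrix Gla protein, an inhibitor of calcification) stood at 1141, 783 and 930 CPM, against 25.5 to 58.9 CPM in PreAs and 7.80 to 13.3 CPM in ASCs. Against PreAs Mgp differed by 4.58 on the log2 scale (SE 0.288, adjusted p = 2.70e-07) and against ASCs by 6.46 (SE 0.310, adjusted p = 1.14e-08), by the quasi-likelihood test of edgeR adjusted after Benjamini and Hochberg. For both genes every mouse's Clec11a+ Fmo2+ cells lay far above every mouse's PreAs and ASCs. The secreted growth factor Gdf10 was at 846 ± 125 CPM (SD, n = 3 mice) against 147 ± 27.6 CPM in PreAs and 72.9 ± 20.3 CPM in ASCs. Gas6, a ligand of the TAM receptor kinases, was at 1388 ± 295 CPM against 195 ± 22.9 and 54.6 ± 8.07 CPM. Agt, the precursor of angiotensin, was at 155 ± 34.5 CPM against 25.7 ± 6.34 and 2.44 ± 0.365 CPM. F3 varied most between mice, with 504, 282 and 220 CPM against 52.0 to 95 CPM in PreAs and 11.4 to 12.5 CPM in ASCs. None of these ranges overlapped, and the 6 markers went with the label. They were chosen with earlier results of these data known, so they are no independent check of it.

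**Figure D1:**
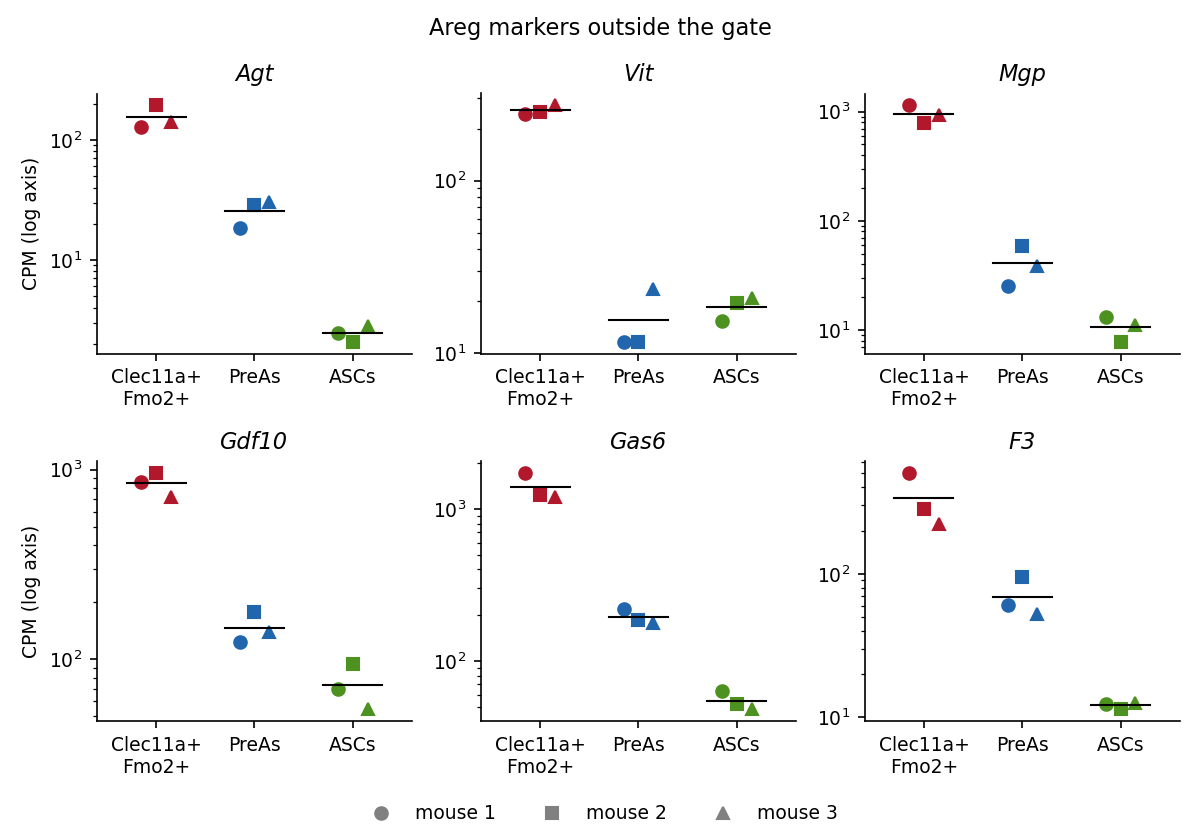
Levels of the 6 Areg markers that did not enter the gate, in CPM on a log axis, with 1 point for each mouse and cell type and a bar at the mean of 3 mice. In every panel the Clec11a+ Fmo2+ cells lie above the PreAs and ASCs, with Mgp at 951 CPM against 41.0 and 10.7 CPM on average.

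At equal depth the markers also met in single cells. When each cell was thinned to 3000 UMIs, which 1090 of the 1322 cells reached, a Clec11a+ Fmo2+ cell held on average 3.45, 3.33 and 3.20 of the 6 markers in mice 1, 2 and 3. A PreA held 0.847 to 0.989 and an ASC 0.338 to 0.403. Thinned in this way, 46.4%, 47.1% and 43.0% of the Clec11a+ Fmo2+ cells had 4 or more of the 6. At full depth these shares were 65.8%, 84.3% and 58.4%, and 5 cells had none. Among 14 Areg marker genes outside the gate, 13 were higher than in PreAs and 14 higher than in ASCs, with a median log2 fold change of 2.55 and 3.84. Over all genes, 13.5% of 13105 tested genes were higher than in PreAs and 20.9% higher than in ASCs, while 13.3% and 24.2% were lower. The exception was Cygb, a globin, at 536 ± 74.3 CPM against 475 ± 106 CPM in PreAs (adjusted p = 0.0592 by edgeR's quasi-likelihood test). The list of 14 genes, too, was written with earlier results of these data known.

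The share of Clec11a+ Fmo2+ cells was 2.46% in mouse 1 (319 of 12984 cells, exact 95% confidence interval 2.20 to 2.74), 7.84% in mouse 2 (503 of 6414, 7.20 to 8.53) and 3.29% in mouse 3 (500 of 15179, 3.02 to 3.59). The mean was 4.53% ± 2.90 (SD, n = 3) and 2.88% without mouse 2, and mouse 2 lay above both other mice by more than their intervals. Mouse 2 was also the most deeply sequenced per cell, with a median of 12192.5 UMIs per kept cell against 7392.5 and 6667. Choosing the cells after thinning to 3000 UMIs gave 1.46%, 3.92% and 1.92%, and mouse 2 still had the highest share. Within a mouse the cells were shallow. Their median was 5160, 10957 and 4815 UMIs, below the 8081.5, 12889 and 7295 UMIs of PreAs and the 7310, 11933 and 6668 UMIs of ASCs. When the kept cells of a mouse were ranked by UMIs and divided into 3 equal groups, 4.95%, 11.5% and 6.31% of the shallowest group were Clec11a+ Fmo2+, against 1.13%, 7.02% and 1.48% of the deepest. The gates are limits on raw UMIs and so depend on depth. Clec11a+ Fmo2+ cells could hold at most 1 UMI each of Fabp4 and Dpp4. PreAs needed at least 4 UMIs and ASCs at least 3 of the genes that chose them. Each gate also held limits that work the other way. The part of these limits in the depths and in the shares by depth was not tested. Intervals cover counting error only. The median share of mitochondrial UMIs was 1.82%, 2.55% and 1.96% in Clec11a+ Fmo2+ cells, 1.66%, 2.70% and 2.01% in PreAs and 1.29%, 1.92% and 1.48% in ASCs. Mitochondrial content was closer to that of PreAs than of ASCs in each mouse, and its part in the comparisons was not tested beyond the other mitochondrial limit.

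**Figure D2:**
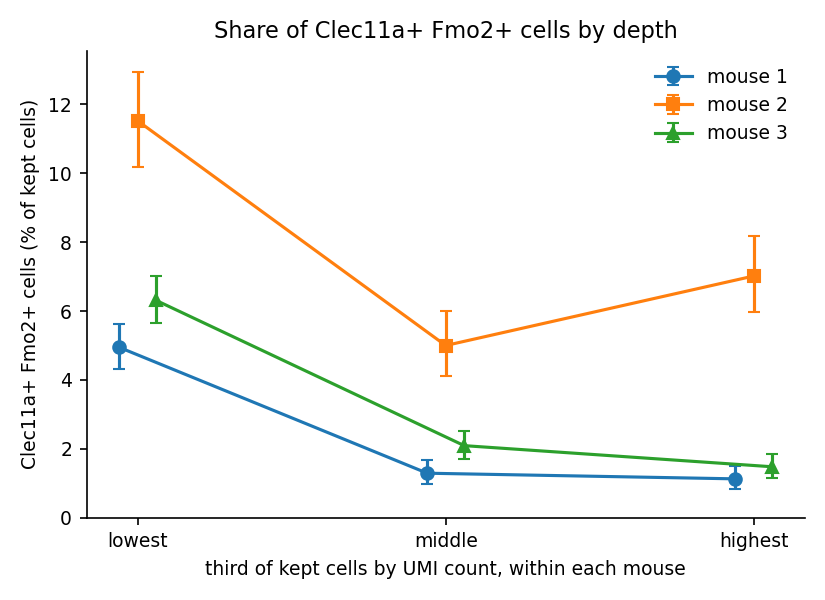
Share of kept cells that were Clec11a+ Fmo2+ (percent, axis from 0) in the lowest, middle and highest of 3 equal groups of cells by UMI count, 1 line per mouse, with exact 95% confidence intervals. All 3 mice had the highest share in the lowest group, and mouse 2 lay above the other mice in each group. The gate is a limit on raw UMIs and so depends on depth itself.

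Levels of the gate genes were read without a test, since they chose the cells. To read them from UMIs that did not choose the cells, each cell's UMIs were divided at random into a part that chose the cells and an equal part that was read. The chosen cells had 342 ± 55.7 CPM of Clec11a in the part that was read (SD, n = 3), against 9.23 CPM in PreAs and 6.06 CPM in ASCs. For Fmo2 the values were 767 ± 94.2, 22.6 and 13.4 CPM. Both genes thus recurred in UMIs that the choice had not used. Icam1 was detected in 628 of the 1322 cells (47.5%). The fibroblast receptor Pdgfra was at 365 ± 68.0 CPM, against 440 ± 101 CPM in PreAs and 358 ± 63.8 CPM in ASCs. For comparison, 54 kept cells with endothelial transcripts (Pecam1 plus Cdh5 at 3 UMIs or more, no Pdgfra) had Clec11a in 3.70% (exact 95% confidence interval 0.452 to 12.7) and Fmo2 in 18.5% (9.25 to 31.4). Among all kept cells Clec11a was detected in 11.2% ± 5.34 and Fmo2 in 15.4% ± 6.11 (SD, n = 3). These endothelial cells were shallower, with medians of 2038, 1999 and 5242 UMIs. Their Fmo2 level was 259.7, 61.8 and 134 CPM in mice 1, 2 and 3 against 34.9, 72.7 and 50.3 CPM over all kept cells, higher in mice 1 and 3 and lower in mouse 2. With 4, 4 and 2 cells holding a UMI of Fmo2, these cells give no firm level of free RNA. The share with Fmo2 was 12.3% ± 5.32 in PreAs and 6.56% ± 1.19 in ASCs. The share of all kept cells with Clec11a lay inside the interval of the endothelial share, which rests on 2 cells.

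Many cells lay near the edge of the rule. Exactly 1 UMI of each of Clec11a and Fmo2 was found in 198 cells, or 15.0% of the 1322. These had 493 ± 88.8 CPM of Mgp and 832 ± 286 CPM of Gas6, below the 951 and 1388 CPM of all Clec11a+ Fmo2+ cells. Just outside, 36 cells had both genes but 2 UMIs of Fabp4, with Mgp at 558 ± 429 CPM, and 65 had both genes but 2 UMIs of Dpp4, with Mgp at 160 ± 163 CPM. A further 719 cells met every condition except Fmo2 and 1305 every condition except Clec11a. The first had 204 ± 55.2 CPM of Mgp and 164 ± 20.03 CPM of Agt, the second 412 ± 135 CPM of Mgp and 86.0 ± 22.6 CPM of Agt. Cells without Fmo2 thus held Agt near the level of the Clec11a+ Fmo2+ cells (155 CPM) with less Mgp. The libraries of mice 1 and 2 shared 52 barcodes, those of mice 1 and 3 shared 81 and those of mice 2 and 3 shared 64, and 1 barcode named a Clec11a+ Fmo2+ cell in both mouse 1 and mouse 2.

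Across 13105 genes, 3517 differed from PreAs (1773 higher, 1744 lower) and 5904 from ASCs (2737 higher, 3167 lower) at an adjusted p of 0.05 in edgeR's quasi-likelihood test with the mouse as a block. Thinned to 3000 UMIs after gating, 2287 and 4214 differed. Without mouse 2 the first count was 2318, and without the block the counts were 1577 and 3192. Both comparisons used the same Clec11a+ Fmo2+ sums, so their values are given side by side and their overlap is not read. The gates used UMIs of the same cells, and the part of that choice in these counts was not tested.

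Besides the markers, the genes standing furthest above both other cell types encoded a GTPase regulator, a homeobox factor and secreted or surface proteins. Arhgdib, which encodes a GDP-dissociation inhibitor of small GTPases, was at 107, 115 and 112 CPM in mice 1, 2 and 3. It was at 3.04 to 4.22 CPM in PreAs and 2.97 to 3.38 CPM in ASCs. The groups were far apart, with a log2 fold change of 5.01 (SE 0.107, adjusted p = 1.48e-10) against PreAs and 5.15 (SE 0.0957, adjusted p = 1.54e-11) against ASCs. The homeobox gene Meox2 was at 101, 97.5 and 118 CPM against 9.21 ± 0.879 CPM in PreAs and 4.44 ± 0.0509 CPM in ASCs, and its log2 fold changes were 3.56 and 4.57. The vasopressin receptor gene Avpr1a was at 65.1, 62.9 and 40.6 CPM against 4.00 ± 1.28 and 2.59 ± 1.43 CPM. For each of these 3 genes every value in Clec11a+ Fmo2+ cells lay above every value in PreAs and ASCs.

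The same held for the other genes of this set. Ralgps2, which encodes an exchange factor for Ral GTPases, was at 58.0 ± 17.3 CPM against 2.64 ± 1.39 and 2.65 ± 0.205 CPM. Ecrg4, the precursor of a secreted peptide, was at 75.9 ± 11 CPM against 3.76 ± 0.384 and 7.55 ± 1.77 CPM. The tetraspanin gene Tspan11 was at 71.0 ± 8.40 CPM against 10.0 ± 2.95 and 1.36 ± 0.159 CPM. The complement gene C2 was at 727 ± 110 CPM against 103 ± 25.8 CPM in PreAs and 43.6 ± 10.7 CPM in ASCs. C2 overlaps the annotated gene Gm20547 on the same strand, which it shares with its neighbour Cfb, so its counts could include reads of that gene. Each of these 4 genes was called in both comparisons.

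**Figure D3:**
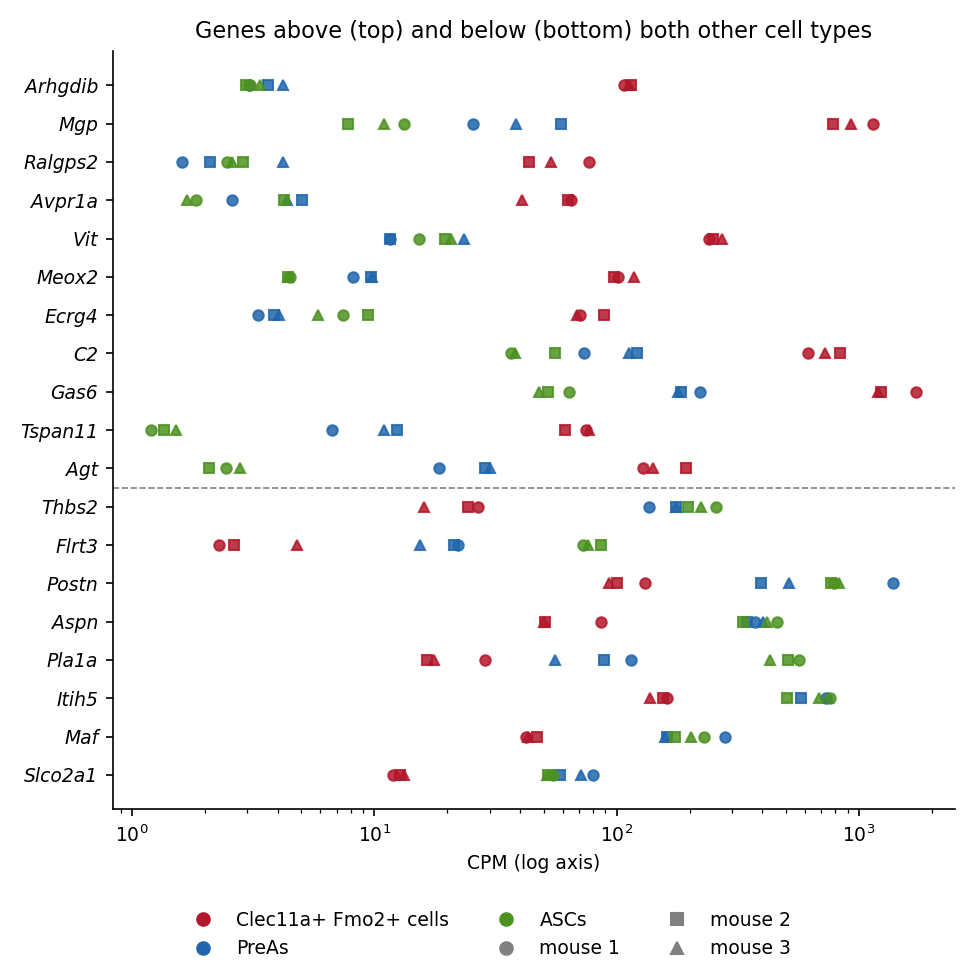
CPM on a log axis of 11 genes most above and the 8 genes most below both other cell types, with 1 point per mouse and cell type. The Clec11a+ Fmo2+ points of the upper genes lie right of all others, from Arhgdib to Agt, and those of the lower genes lie left, from Thbs2 to Slco2a1.

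The 8 genes furthest below both other cell types, again among genes with at least 50 CPM in a cell type, encoded proteins of several kinds. Thbs2 (thrombospondin 2) was at 26.8, 24.5 and 16.1 CPM in mice 1, 2 and 3. It was at 136 to 177 CPM in PreAs and 196 to 257 CPM in ASCs, with log2 fold changes of -2.80 and -3.31 (SE 0.187 and 0.185). Periostin, encoded by Postn, was at 131, 101 and 92.9 CPM against 765 ± 540 CPM in PreAs and 795 ± 31.5 CPM in ASCs, and the PreAs of mouse 1 alone reached 1384 CPM. Aspn (asporin, a small proteoglycan) was at 62.3 ± 20.7 CPM against 373 ± 27.5 and 403 ± 64.0 CPM. Even the highest of these Clec11a+ Fmo2+ values stayed below every PreA and ASC value of its gene. The transcription factor gene Maf was at 44.1 ± 2.58 CPM against 200 ± 70.0 and 202 ± 27.2 CPM. Itih5, which encodes a hyaluronan-associated protein, was at 151 ± 12 CPM against 684 ± 91.7 and 649 ± 129 CPM. Pla1a (a phospholipase), Flrt3 (a leucine-rich membrane protein) and Slco2a1 (a prostaglandin transporter) completed the 8, at 20.9, 3.25 and 12.7 CPM on average.

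Among genes with at least 50 CPM in a cell type, the largest rise against PreAs was in Sfrp4, a secreted inhibitor of Wnt signalling, at 308, 460 and 489 CPM against 9.11 to 18.0 CPM. Its log2 fold change was 5.19 (SE 0.170, adjusted p = 3.68e-09), while against ASCs, at 268 ± 19.2 CPM, it was 0.64 (SE 0.135, adjusted p = 0.00218). Chrdl1, an antagonist of bone morphogenetic proteins (BMPs), was at 488 ± 71.2 CPM against 18.2 ± 10.4 CPM in PreAs and 150 ± 37.0 CPM in ASCs. Sfrp4 and Chrdl1 were thus called in both comparisons but were also present in ASCs. Under the same limit the largest falls against PreAs were in Car3 (carbonic anhydrase 3), Cldn15 (a claudin), Lamc3 (a laminin chain), H2-Q7 (an MHC class I gene) and Olfm2 (an olfactomedin). Car3 was at 0.253 ± 0.291 CPM against 50.7 ± 32.6 CPM, and Cldn15 at 2.25 ± 0.221 against 72.0 ± 15.1 CPM. H2-Q7, at 3.87 ± 0.250 against 81.5 ± 19.9 CPM, has near-identical copies and its value is uncertain.

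Against ASCs the genes with the largest rises after Mgp, Agt and Tspan11, again among genes with at least 50 CPM in a cell type, were Tmem176a (a membrane protein) and Apoe (apolipoprotein E). Apoe was at 904, 1111 and 1562 CPM against 15.3 to 56.3 CPM in ASCs, a log2 fold change of 5.22 (SE 0.248). Against PreAs, at 587 to 951 CPM, its log2 fold change was 0.66 (SE 0.208, adjusted p = 0.0350) and the ranges of the mice overlapped. The largest falls were in Dmkn (dermokine), Itgb7 (an integrin chain), Edn1 (the precursor of endothelin 1), Bmp7 and Chst1 (a sulfotransferase), with log2 fold changes from -6.40 to -5.46. These 5 genes were at 51.1 to 133 CPM in ASCs and at 1.35 to 2.38 CPM in Clec11a+ Fmo2+ cells. Of the 5, only Edn1 also fell below PreAs (log2 fold change -1.47, adjusted p = 0.00162).

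Secreted Wnt and BMP regulators were read next, because Aregs are known to act through secreted factors. Of 31 tested Wnt genes 19 were higher and 5 lower than in PreAs, and 16 higher and 9 lower than in ASCs. Their median log2 fold change was 0.91 and 0.46, against -0.03 over all tested genes in each comparison. This and each later list is to be read beside the shares over all tested genes. Those were 13.5% higher and 13.3% lower against PreAs, and 20.9% higher and 24.2% lower against ASCs. The R-spondins amplify Wnt signals: Rspo1 was at 34.8, 40.1 and 39.8 CPM against 1.22 ± 0.574 CPM in PreAs and 3.58 ± 0.795 CPM in ASCs. Rspo2 was at 15.7 ± 5.83 CPM against 0.358 ± 0.140 and 1.52 ± 0.394 CPM, while Rspo3 went the other way (0.456 against 5.55 and 7.65 CPM). The ligand gene Wnt6 was at 7.78 ± 2.73 CPM against 0.240 ± 0.127 and 0.0805 ± 0.0532 CPM, and Dkk3, of a family of secreted Wnt modulators, at 15.1 ± 7.23 CPM against 0.255 ± 0.187 and 1.05 ± 0.408 CPM. Other ligand genes differed between the comparisons. Wnt10b, Wnt5b, Wnt2 and Wnt9a were higher than in PreAs and lower than in ASCs, Wnt5a was higher than in PreAs, and Wnt11 was lower than in ASCs, so that Wnt6 was the only ligand gene of the list called higher than in ASCs. Sfrp2, another inhibitor, was at 952 ± 205 CPM against 63.4 ± 24.8 CPM in PreAs, and its difference from ASCs (786 ± 162 CPM) did not pass the test (adjusted p = 0.162). Axin2, a target of the pathway, stood at 3.32 ± 1.94 CPM, above PreAs (0.928 ± 0.491 CPM) and not called against ASCs (4.77 ± 1.25 CPM). Sfrp5 had the largest Wnt fold changes, 7.58 and 7.01 on the log2 scale, but its UMIs sat in 2 cells of each mouse (33, 21 and 67 UMIs).

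Of 40 tested genes of TGF-beta and BMP signalling 20 were higher and 6 lower than in PreAs, and 15 higher and 14 lower than in ASCs (median log2 fold change 0.39 and 0.15). The antagonists were divided: Chrdl1 and Nog were higher in both comparisons, Bmper, an extracellular BMP regulator, was lower than in PreAs and higher than in ASCs, and Fst (follistatin) was lower than in PreAs. Nog (noggin) was low, at 4.00, 4.52 and 4.02 CPM, but lay at 0.396 ± 0.295 CPM in PreAs and 0.0523 ± 0.0603 CPM in ASCs. The ligands Bmp7, Bmp6, Bmp3 and Bmp2 were all lower than in ASCs, Bmp2 at 29.7 ± 13.5 against 105 ± 24.3 CPM, although Bmp3 was higher than in PreAs (3.78 ± 2.79 against 0.415 ± 0.360 CPM). The BMP target Id3 was at 1105, 1100 and 1139 CPM against 467 ± 20.3 CPM in PreAs and 1044 ± 207 CPM in ASCs, and Id2 at 215 ± 47.4 CPM against 108 ± 31.9 and 82.8 ± 18.5 CPM. Id2 was called in both comparisons and Id3 against PreAs alone (adjusted p = 0.338 against ASCs).

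Retinoid genes act in the transport and metabolism of vitamin A. Of 23 tested, 8 were higher and 4 lower than in PreAs and 10 higher and 8 lower than in ASCs, with a median log2 fold change of 0.31 and 0.19. Shares over all tested genes were 13.5% higher and 13.3% lower against PreAs, and 20.9% and 24.2% against ASCs. The median of the list was 0.20 against PreAs without mouse 1, and against ASCs 0.31 without mouse 1 and 0.58 without mouse 2. It changed sign to -0.0098 against PreAs when cells were thinned before gating. Against ASCs it became -0.010 with at least 2 UMIs of both Clec11a and Fmo2. Aldh1a2, which makes retinoic acid, was at 12.6, 4.33 and 6.03 CPM against 0.516 ± 0.421 CPM in PreAs and 0.101 ± 0.0649 CPM in ASCs. The retinol carrier gene Rbp4 was at 122 ± 17.6 CPM and was higher than in each other cell type. Bco1, which cleaves beta-carotene, had no UMI in any Clec11a+ Fmo2+ cell and stood at 5.17, 1.38 and 1.94 CPM in ASCs.

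Among 10 tested vitamin K-dependent and TAM receptor genes 3 were higher and none lower than in PreAs, while 6 were higher and 1 lower than in ASCs (median log2 fold change 0.32 and 0.71). Mgp, Gas6 and Vkorc1 were higher in both comparisons, and Vkorc1, which encodes the enzyme that recycles vitamin K and overlaps the annotated gene Gm21974, was at 416 ± 24.2 CPM against 227 ± 15.6 and 197 ± 31.4 CPM. Axl, a receptor for Gas6, was at 166, 171 and 139 CPM, against 165 ± 3.41 CPM in PreAs and 658 ± 58.7 CPM in ASCs (log2 fold change -2.05, SE 0.0846). Mertk, another receptor gene for Gas6, was at 4.34 ± 1.82 CPM against 7.03 ± 1.50 CPM in PreAs (adjusted p = 0.0645 by edgeR) and 1.10 ± 0.141 CPM in ASCs, and was called higher than in ASCs. Of 16 coagulation genes 7 were higher and 3 lower than in PreAs, and 9 higher and 4 lower than in ASCs (median 0.22 and 0.28). With F3 the thrombin receptor gene F2r was higher in both, at 8.95 ± 0.844 CPM against 2.31 ± 1.39 and 0.714 ± 0.243 CPM, whereas Procr, the protein C receptor gene, was at 268 ± 46.2 CPM, above PreAs (74.5 ± 17.2 CPM) and below ASCs (669 ± 81.4 CPM). Of 12 renin-angiotensin genes 5 were higher and 2 lower than in PreAs, and 3 higher and 4 lower than in ASCs (median 0.30 and -0.05; 0.059 against PreAs without mouse 3). The 2 lower than in PreAs lie near the 13.3% of all tested genes that were lower there. Against ASCs the counts lie near the shares over all tested genes (20.9% higher, 24.2% lower). Agt and Atp6ap2, the renin receptor gene, were higher in both comparisons. Ace, which makes angiotensin II, was at 392 ± 76.5 CPM against 184 ± 39.7 and 709 ± 61.9 CPM, and Enpep, which degrades it, at 31.3 ± 2.11 CPM against 152 ± 49.8 and 36.1 ± 12 CPM. Renin itself (Ren1) had no UMI in these cells.

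Of 21 tested complement genes 12 were higher and 2 lower than in PreAs (median log2 fold change 1.18), and 14 were higher and 2 lower than in ASCs (median 0.80). Their summed level was 11668, 11381 and 11718 CPM, against 4439 to 5832 CPM in PreAs and 9114 to 10179 CPM in ASCs, and the ranges did not overlap. Serping1, the C1 inhibitor, made the largest part with 3657 ± 259 CPM against 1333 ± 198 and 2819 ± 272 CPM. C4b, of the classical pathway, was at 829 ± 190 CPM against 354 ± 75 and 256 ± 48.8 CPM. C7, of the membrane attack complex, was at 2067, 167 and 1440 CPM. Mouse 2 was low for C7 in every cell type, with 15.6 CPM in PreAs and 46.1 CPM in ASCs, yet Clec11a+ Fmo2+ cells were highest within each mouse (log2 fold change 3.52 and 2.12). C3 was above PreAs and below ASCs (2660 ± 321 CPM against 1536 ± 380 and 3800 ± 321 CPM). The regulator Cd55, itself a progenitor marker, was lower than in both, at 55.9 ± 18.5 CPM against 96.2 ± 35.1 and 806 ± 302 CPM.

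Of 16 insulin-like growth factor genes 9 were higher and 3 lower than in PreAs, and 7 higher and 6 lower than in ASCs (median log2 fold change 0.51 and -0.14). Igf1 was at 1110, 921 and 973 CPM against 218 to 456 CPM in PreAs and 130 to 193 CPM in ASCs, with no overlap and log2 fold changes of 1.74 and 2.71 (SE 0.171 and 0.176). Igfbp5, which binds it, went the other way at 969 ± 201 CPM against 1658 ± 353 and 3153 ± 624 CPM. Of 15 tested genes of sterol efflux 8 were higher and 1 lower than in PreAs, and 7 higher and 3 lower than in ASCs (median 0.29 and 0.16; 0.022 against ASCs without mouse 2). The sterol exporter Abcg1 was at 8.12 ± 1.10 CPM against 1.48 ± 0.556 and 0.847 ± 0.190 CPM. Of 19 flavin monooxygenase and xenobiotic genes other than Fmo2, 5 were higher and 3 lower than in PreAs, and 11 higher and 2 lower than in ASCs (median 0.21 and 0.60; against PreAs 0.13 without mouse 1 and 0.11 without mouse 3). In these lists the counts lower than in PreAs lie near or below the share over all tested genes (13.3%). The sterol efflux and xenobiotic counts lower than in ASCs also lie near or below that share (24.2%). Fmo1, a relative of Fmo2, was at 148, 185 and 132 CPM against 63.9 ± 11.8 and 26.1 ± 3.89 CPM. The cytochrome P450 genes Cyp2f2 and Cyp2e1 were at 26.2 ± 11.4 and 8.78 ± 4.59 CPM and were higher in both comparisons.

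Matrix genes were read in lists by structure. Of 19 basement membrane genes 14 were lower and 3 higher than in PreAs (median log2 fold change -0.94), while 10 were higher and 6 lower than in ASCs (median 0.30, and 0.66 without mouse 2). The type IV collagen gene Col4a1 was at 1334, 1039 and 1101 CPM, between the 3640 ± 612 CPM of PreAs and the 290 ± 99.5 CPM of ASCs. Its neighbour Col4a2 took the same place, with 576 ± 107 CPM between 1619 ± 310 and 107 ± 45.4 CPM, and so did Col15a1 (408 ± 24.7 CPM between 998 ± 128 and 27.4 ± 10.9 CPM). The laminin chains did not follow one order. Lamb1 was lower than in both, at 67.2 ± 11.1 CPM against 502 ± 132 and 244 ± 58.8 CPM, and Lamb2 was higher than in both, at 463 ± 15.6 CPM against 180 ± 26.2 and 378 ± 22.2 CPM. Fibrillar matrix genes were divided, with 8 of 31 higher and 11 lower than in PreAs and 15 higher and 14 lower than in ASCs (median -0.04 and -0.13; 0.19 against ASCs without mouse 1). Type I collagen was high: Col1a1 was at 14076, 13008 and 13845 CPM against 5586 ± 1161 and 5023 ± 727 CPM. Of 11 small leucine-rich proteoglycan genes 7 were higher and 3 lower than in PreAs, and 6 higher and 4 lower than in ASCs (median 0.52 and 0.59). Decorin (Dcn), at 17795 ± 1783 CPM, and biglycan (Bgn), at 1118 ± 26.1 CPM, were higher in both comparisons.

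Bone and cartilage genes were included because Clec11a is known in the skeleton. Of 12 tested, 3 were higher and 4 lower than in PreAs, and 6 higher and 2 lower than in ASCs (median 0.05 and 0.94; 0.33 against PreAs without mouse 3). Among all tested genes 13.5% were higher and 13.3% lower than in PreAs, and 20.9% higher and 24.2% lower than in ASCs. Matn2 (matrilin 2) was at 26.8, 19.6 and 25.7 CPM against 2.30 ± 1.06 and 2.52 ± 0.0836 CPM. The bone regulator Runx2 was at 2.07 ± 0.350 CPM, below PreAs (7.96 ± 0.462 CPM) and above ASCs (0.623 ± 0.0984 CPM). Among the bone and cartilage genes Sp7, Ibsp, Acan and Col2a1 had no UMI in these cells.

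Of 28 tested adipocyte and PPAR target genes 12 were lower, 3 (Klf15, Cebpd and Cebpb) higher and 13 not called against PreAs (median log2 fold change -0.41), and 10 were higher and 8 lower than in ASCs (median 0.05). Pparg, the master regulator of adipogenesis, was at 4.00, 7.91 and 7.24 CPM, against 48.1 to 54.9 CPM in PreAs and 2.79 to 3.83 CPM in ASCs. The lipid droplet gene Plin2 was at 40.7 ± 12 CPM against 669 ± 56.3 CPM in PreAs and 50.9 ± 6.79 CPM in ASCs, and the fatty acid carrier gene Cd36 at 8.21 ± 1.89 CPM against 167 ± 74.1 and 2.75 ± 2.01 CPM. Lipoprotein lipase (Lpl) lay between, at 1206 ± 170 CPM against 3006 ± 250 and 409 ± 45.9 CPM. Fabp4, an adipocyte gene, was part of the gates, and its part in these differences was not tested. Of 21 tested progenitor genes outside the gate 20 were lower than in ASCs and none higher (median log2 fold change -3.74), and 11 were higher and 2 lower than in PreAs (median 0.53). Sema3c, a guidance protein gene, was at 125, 66.1 and 115 CPM against 637 ± 192 CPM in ASCs and 37.3 ± 18.3 CPM in PreAs, and Fn1 (fibronectin) at 1793 ± 18.3 CPM against 5392 ± 366 and 602 ± 184 CPM. Dpp4 and Pi16 chose the ASCs, and the part of that choice in these values was not tested either.

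**Figure D4:**
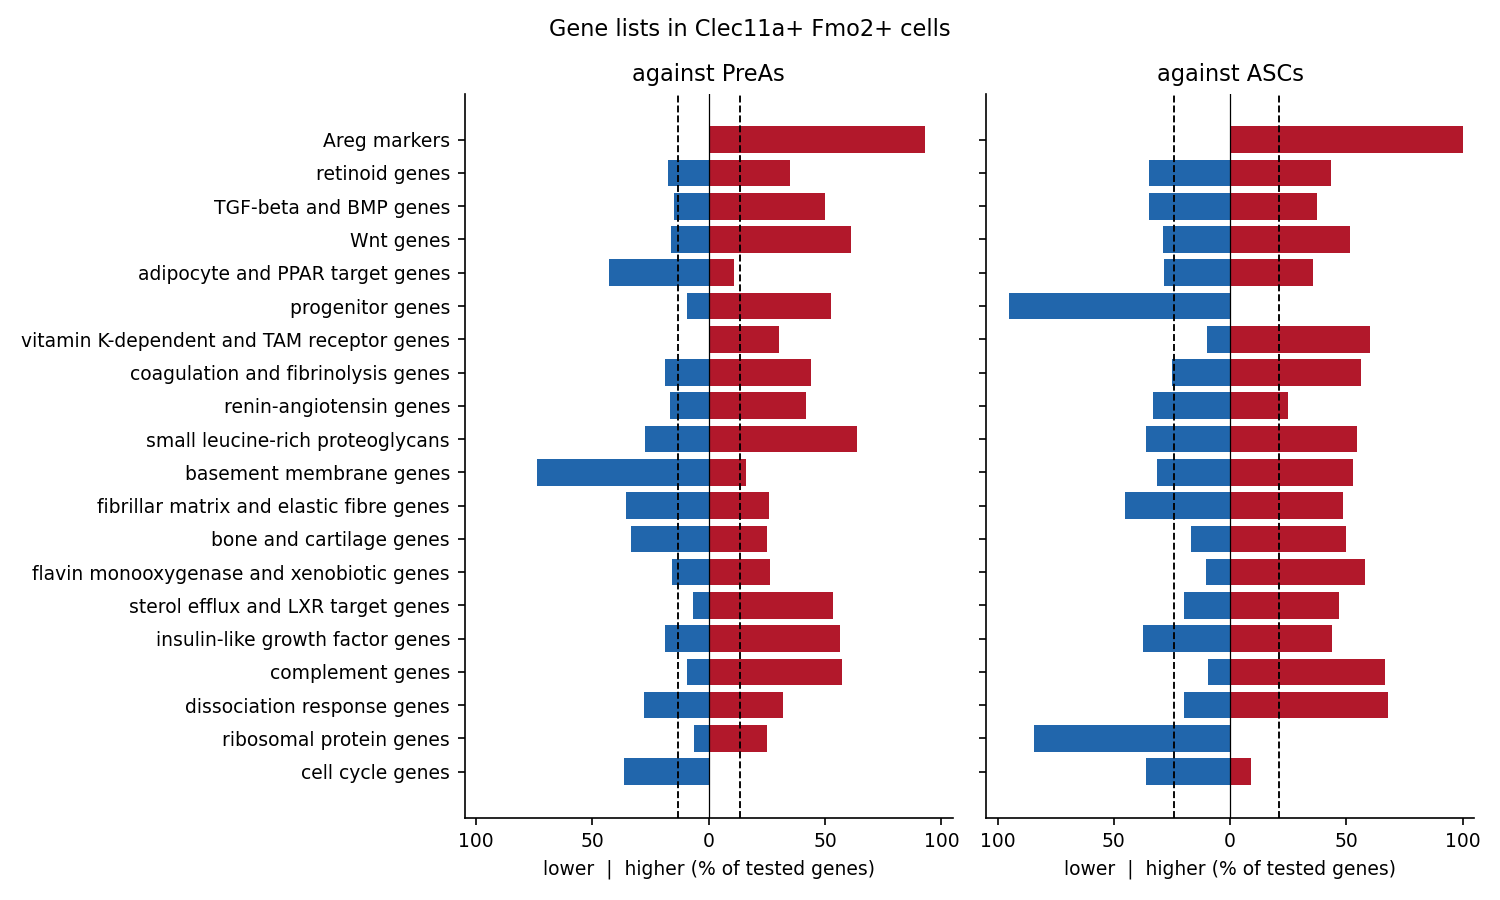
Percent of tested genes of each list that were higher (right) or lower (left) in Clec11a+ Fmo2+ cells than in PreAs and ASCs at an adjusted p of 0.05, with dashed lines at the percentages over all tested genes (13.5 and 13.3 for PreAs, 20.9 and 24.2 for ASCs). Areg markers stand out to the right in both panels, basement membrane genes to the left for PreAs and progenitor and ribosomal protein genes to the left for ASCs.

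Ribosomal protein genes were lower than in ASCs for 27 of 32, with a median log2 fold change of only -0.33, and 8 were higher and 2 lower than in PreAs (median 0.09). Of 25 genes that respond to tissue dissociation 8 were higher and 7 lower than in PreAs, and 17 higher and 5 lower than in ASCs (median 0.03 and 0.42). Jun was at 3521 ± 537 CPM against 4552 ± 770 and 1680 ± 421 CPM. The part of the dissociation response in the comparisons was not tested. Of 11 tested cell cycle genes 4 were lower and none higher than in PreAs, and 4 were lower and 1 higher than in ASCs (median -2.53 and -2.79). After thinning before gating these medians were 0.12 and 0.89, so no direction is read from them. Mki67, a marker of dividing cells, had UMIs in the Clec11a+ Fmo2+ cells of mouse 3 alone (0.402 CPM).

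Markers of other cell types were read over whole lists. The 10 endothelial markers summed to 26.3, 25.4 and 28.2 CPM in Clec11a+ Fmo2+ cells, mostly Tek (21.8 CPM), and 2 of them, Vwf and Flt1, had no UMI. PreAs summed to 70.6 CPM and ASCs to 161 CPM on average, of which Tek made 156 CPM. Of 8 tested, none was higher than in PreAs and 5 were lower, and 1 was higher and 1 lower than in ASCs. The 11 leukocyte markers summed to 9.95 ± 3.76 CPM, led by Cd68, with Adgre1 and Cd3e at 0, and none of 4 tested was called. The 10 mural markers summed to 61.7, 58.9 and 111 CPM, led by Abcc9 (54.6 CPM) with Mcam and Higd1b at 0, with 1 of 9 higher and 5 lower than in PreAs and 4 higher and 1 lower than in ASCs. Schwann cell markers summed to 30.8 ± 6.26 CPM, led by S100b. Of 4 tested, Mbp was higher and Cdh19 lower than in PreAs, while S100b and Cdh19 were higher and Mbp lower than in ASCs (median log2 fold change -0.15 and 1.74). Erythroid markers summed to 2.74 ± 1.89 CPM, and the lymph node stroma marker Cxcl13 was lower than in both other cell types. The part of these transcripts in the comparisons was not tested beyond leaving out cells with 2 or more UMIs of endothelial, leukocyte or mural markers. Schwann cell markers were not among them. This setting gave 3259 and 5288 differing genes. It left out 2812, 1633 and 3440 ASCs of mice 1, 2 and 3. Far fewer PreAs (457, 435 and 418) and Clec11a+ Fmo2+ cells (39, 126 and 83) were left out.

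Among Clec11a+ Fmo2+ cells, epithelial transcripts came from 1 library. Over all kept cells, 4, 5 and 59 cells of mice 1, 2 and 3 held 2 or more epithelial UMIs. In Clec11a+ Fmo2+ cells the 6 epithelial markers summed to 0, 0 and 116 CPM in mice 1, 2 and 3. Mesothelial markers, which share keratins with them, summed to 0.571, 1.88 and 41.0 CPM. Of the 288 epithelial UMIs, 285 lay in 4 of the 500 Clec11a+ Fmo2+ cells of mouse 3. Krt8, Krt18 and Epcam were called higher in both comparisons although the Clec11a+ Fmo2+ cells of mice 1 and 2 had no UMI of them. Without cells holding 2 or more epithelial UMIs, a setting chosen after seeing the data, 3533 and 5900 genes differed, and Slc12a2, an ion transporter gene at 8.00, 11.5 and 86.9 CPM, had a log2 fold change of 0.25 against PreAs (adjusted p = 0.372) in place of 1.39 (adjusted p = 0.0208).

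F3, by which Aregs are sorted as CD142+ cells, divided the Clec11a+ Fmo2+ cells. At least 1 UMI of F3 was found in 200 of 319, 308 of 503 and 203 of 500 cells of mice 1, 2 and 3, that is in 62.7%, 61.2% and 40.6%. Thinned to 3000 UMIs per cell after gating, the shares were 56.7%, 38.0% and 32.1%, so that mouse 2 was near mouse 1 at full depth and nearer to mouse 3 at equal depth. In endothelial cells the share with F3 was 3.70% (exact 95% confidence interval 0.452 to 12.7). Of all kept cells with F3, 10.5%, 18.7% and 11% were Clec11a+ Fmo2+ cells, while 24.1%, 28.1% and 20.5% were PreAs and 21.8%, 16.2% and 27.6% ASCs. In each mouse most cells with a transcript of F3 were therefore outside the Clec11a+ Fmo2+ cells. The F3+ cells had medians of 5363, 10625 and 5072 UMIs and the F3- cells of 4511, 11426 and 4662. Fmo2, a gate gene, was at 815, 666 and 994 CPM in F3+ cells of mice 1, 2 and 3. In F3- cells it was at 593, 531 and 600 CPM. With at least 2 UMIs of both Clec11a and Fmo2, the mean F3+ share was 62.6% in place of 54.8%. That setting gave 136 differing genes between F3+ and F3- cells. Beyond it, the part of the Fmo2 difference in this comparison was not tested.

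Of 8370 genes tested between F3+ and F3- cells, 64 were higher (0.765%) and 80 lower (0.956%) in F3+ cells by edgeR's quasi-likelihood test with the mouse as a block. Scaled by library size in place of TMM, 68 were higher and 49 lower, and DESeq2 called 17 higher and 49 lower, so the balance of directions depends on the scaling and the test. Leaving out mouse 1 or mouse 3 left 73 or 52 differing genes, and without the block 1 gene differed. Thinned to 3000 UMIs after gating, 148 genes differed. Mgp was at 1595, 1045 and 1508 CPM in F3+ cells and at 300, 374 and 480 CPM in F3- cells, so every mouse's F3+ value was above every F3- value, and every F3- value above the 58.9 CPM that PreAs reached at most. Its log2 fold change was 1.75 (SE 0.128, adjusted p = 5.45e-05). Fmod (fibromodulin, which binds collagen) was at 27.3, 11.1 and 58.8 CPM in F3+ cells and 0, 1.44 and 5.72 CPM in F3- cells, and Mfap4, a microfibril gene, at 29.9, 28.4 and 71.7 against 4.89, 1.93 and 12.2 CPM. Of 29 tested fibrillar matrix and elastic fibre genes, however, 5 were higher, 2 (Fn1 and Efemp1) lower and 22 not called, with a median log2 fold change of 0.05. Dkk3, Sema3d (a guidance protein gene), Cd200 (a surface protein gene) and Bmp4 had log2 fold changes of 2.12, 2.05, 1.83 and 1.69, and each was higher in F3+ cells of all 3 mice. Slc12a2 (1.61) was higher in 2 of 3 mice, and without the cells holding epithelial UMIs its log2 fold change was 0.18 (adjusted p = 0.918).

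In F3- cells the collagen gene Col6a5 was at 116, 12 and 31.5 CPM against 13.2, 6.80 and 17.5 CPM in F3+ cells, but 3 cells held 50%, 40.4% and 44.4% of its UMIs in Clec11a+ Fmo2+ cells of mice 1, 2 and 3. Ifitm1, an interferon-induced gene, was at 61.9, 28.4 and 61.5 against 11.4, 15.8 and 19.3 CPM (log2 fold change -1.48, SE 0.233), and Tgfb2 at 58.7, 55.9 and 31.5 against 25.5, 21.3 and 20.2 CPM. For these genes, too, each mouse went the same way. The factor gene Osr2 and the oxidase gene Aox3 were also lower in F3+ cells, with log2 fold changes of -1.09 and -1.07. The Areg markers did not go together. Bgn and Cygb were higher in F3+ cells with Mgp, whereas Agt was lower in F3+ cells (128, 144 and 103 CPM against 130, 271 and 171 CPM; log2 fold change -0.71, SE 0.133, adjusted p = 0.0174). Vit, Gdf10 and Gas6 were not called, with log2 fold changes of -0.01, 0.17 and 0.45. Of 14 tested complement genes 2 were lower in F3+ cells (C3 and Vtn) and none higher, and of 17 basement membrane genes 2 were higher (Col4a2 and Col15a1).

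**Figure D5:**
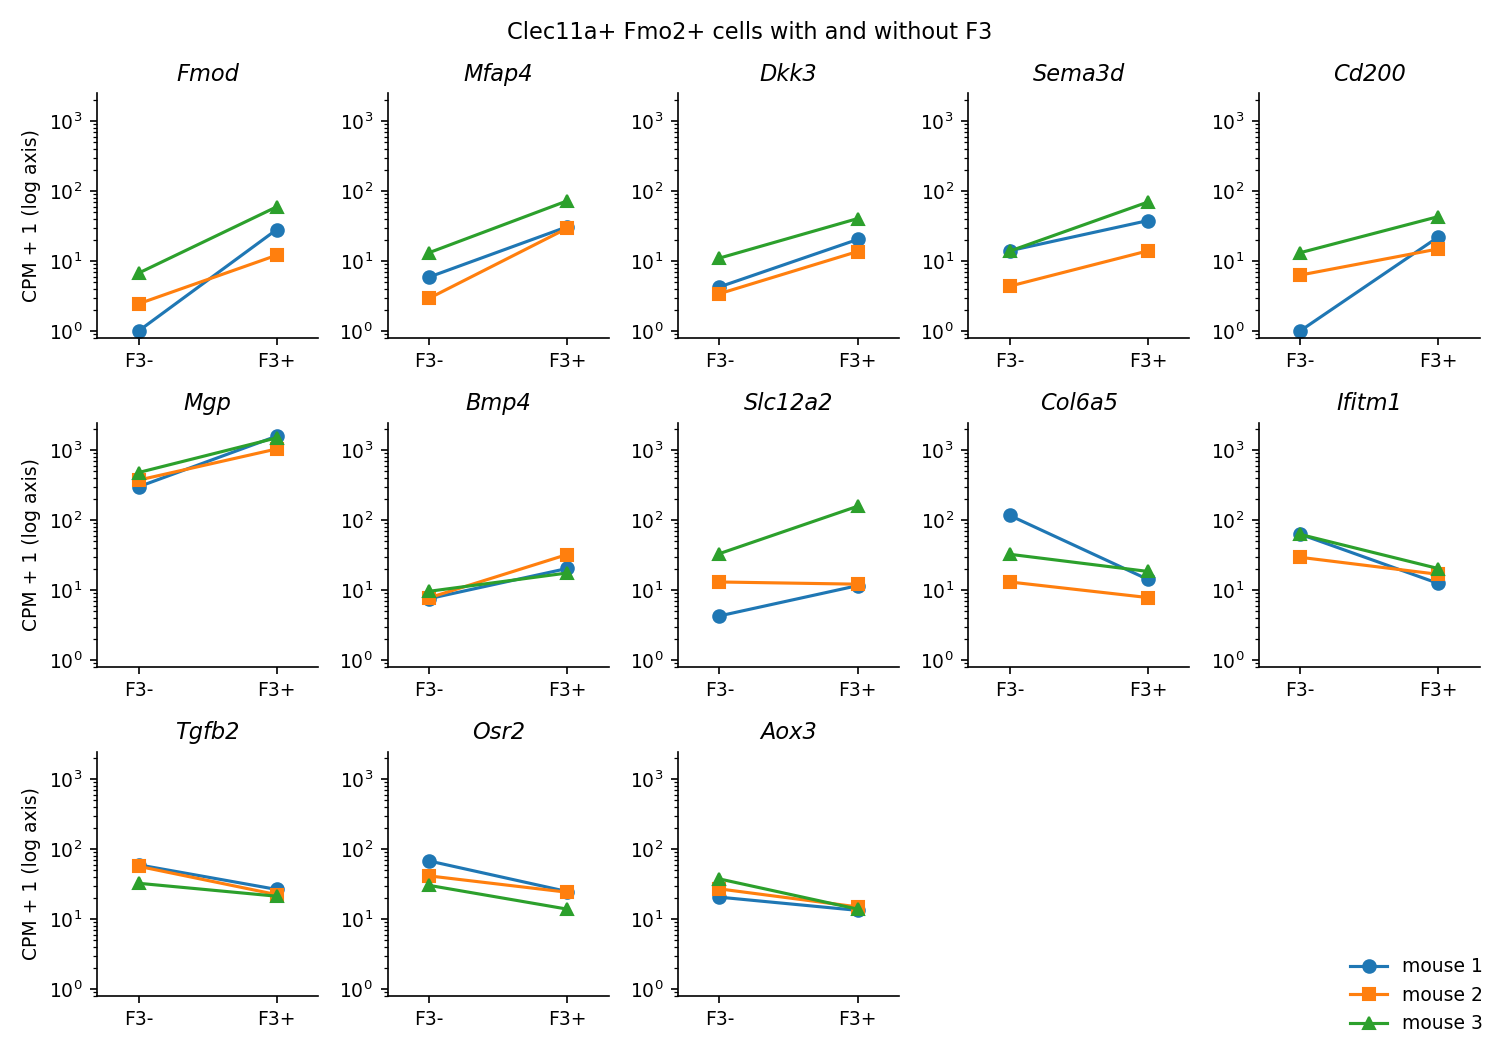
CPM plus 1 on a log axis in F3- and F3+ cells, 1 line per mouse. Shown are the 8 genes most above and the 5 most below in F3+ cells, among genes of at least 20 CPM. Lines run upward in all 3 mice for the first 7 genes (Fmod to Bmp4), upward in 2 of 3 for Slc12a2, and downward in all 3 for Col6a5 to Aox3.

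Mgp was among the genes that varied most from cell to cell. Of 7130 genes given a residual variance over the Clec11a+ Fmo2+ cells, whose median was 1.05, 1.07 and 1.05, Mgp had 19.8, 30.5 and 16.2 in mice 1, 2 and 3 and was found in 57.7%, 62.6% and 57.8% of the cells. Only Gm42418, a transcript that overlaps ribosomal RNA, had a better median rank. The chemokine gene Ccl7 had the same median rank as Mgp, with residual variances of 14.5, 37.1 and 19.7. The chemokine gene Ccl2, the collagen gene Col1a1, Sfrp2 and Apoe followed, with residual variances of at least 10.6 in each mouse. A UMI of Sfrp2 was found in 45.8% to 50.5% of cells. Across single cells, which share a library and differ in depth, Mgp went with F3 (Pearson's r of 0.482, 0.457 and 0.495 in 319, 503 and 500 cells). For Fmo2 and F3 the values were 0.320, 0.300 and 0.416, but Fmo2 chose the cells, so no result is read from them. Agt ran weakly against F3 (-0.108, -0.197 and -0.130) and against Mgp (-0.134, -0.127 and -0.123). These correlations were taken on the residuals behind the residual variances, which take account of each cell's UMI total. They are descriptions over sparse counts, and cells are not replicates.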

How the data were processed

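The deposited files were matrices of UMI counts per gene and barcode for 3 mice (32285 genes; 13698, 6872 and 16220 barcodes). Per the submitters' processing notes the authors used Cell Ranger 2.1.1 and mm10, whereas the matrix headers name version 4.0.0 and the study's methods yet another, so the version is unsettled. Counts were summed per mouse and cell type and tested with edgeR 4.0.16 (R 4.3.3; TMM, filterByExpr, glmQLFTest, mouse as a block, Benjamini-Hochberg over all tested genes). Mice pair the sums, since each sum comes from 1 animal, and deviations of sums of 1 mouse correlated (Pearson's r from 0.228 to 0.759 across genes). No doublet caller was run; leaving out the 5% of cells with the most UMIs was an alternative, as were other scalings, filters, gates, depths and DESeq2 1.42.0. The gate chose the cells from the same UMIs, so p-values are descriptive near gate genes.

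Named genes were the Areg markers; the 12 genes highest and 8 lowest against both cell types by the smaller log2 fold change; the 5 largest rises and falls in each comparison (same sign in each mouse, at least 50 CPM in a cell type); the 3 most changed genes of each list and genes whose role is explained; and, for F3, 8 rises and 5 falls of at least 20 CPM. Gate genes, mitochondrial genes and Xist were left out, and some genes that met these rules are not reported here. The members, lists and tests were chosen with earlier results of these data known. Residual variances were Pearson residuals (theta 100) of genes found in at least 5% of cells. The tests were also run on simulated counts with a fixed dispersion, no mouse effect and no gating. That run differs from these data and cannot vouch for their calls. Counting by Cell Ranger can split reads between overlapping genes or near-identical copies. Of the gene IDs, 32158 were found in GENCODE M21.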

Additional observations from a re-analysis of the deposited data

Results flagged for a closer look

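Barcodes outside the kept cells also met the gate. There were 18 in mouse 1, 46 in mouse 2 and 18 in mouse 3, among 714, 458 and 1041 barcodes that were not kept, and 8, 46 and 15 of them had 5% or more mitochondrial UMIs. They lie outside the cells compared and entered none of the comparisons at the 5% limit. With the limit at 10%, 325, 543 and 513 cells met the gate and some of these barcodes were included, and 3626, 5953 and 206 genes differed against PreAs, against ASCs and between F3+ and F3- cells. The 3 mice are too few for a test of single outlying samples.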

How the results depend on the processing

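Of 255 fold changes of named genes, 230 passed the threshold. Over 3929 recomputed values 3699 kept direction and side of the threshold, 180 lost and 44 gained significance, and 6 changed sign. With the mouse as a replicate block the counts were 3517, 5904 and 144; without the block they were 1577 against PreAs, 3192 against ASCs and 1 between F3+ and F3- cells. Leaving out each mouse gave 2318 to 2833, 4318 to 5011 and 52 to 139 genes. Thinning after gating gave 2287 against PreAs, and thinning before gating 1942, 3363 and 95. For F3, DESeq2 gave 66 (7789 adjusted p-values were not given) and no filter on low counts 364. The mean share, 4.53%, ranged from 2.44% (thinned before gating, lower in each mouse) to 6.06% (without cells holding markers of other types, higher in each mouse), and from 2.88% to 5.57% with a mouse left out. Without cells holding markers of other types, 8770, 3474 and 10080 of the 12984, 6414 and 15179 kept cells remained. The causes of these changes were not tested.

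With at least 2 UMIs of both gate genes, Krt18 was at -0.21 against PreAs and -1.99 against ASCs on the log2 scale. Slc12a2 was at -0.26 between F3+ and F3- cells without the 5% of deepest cells and at -0.67 with Fabp4 and Dpp4 at 0, and against ASCs between -0.15 (without mouse 3) and 1.39 (without mouse 1) with a mouse left out and at -0.077 without epithelial cells. Of 800 recomputed medians of lists with at least 4 tested genes, 135 moved by more than the spread between mice and 23 changed sign. Retinoid medians became -0.0098 (thinned before gating, PreAs) and -0.010 (2 UMIs, ASCs), and the fibrillar median against ASCs ranged from -0.27 to 0.19 with a mouse left out. Endothelial medians against ASCs became 0.20 (DESeq2), 0.29 (no block), -0.77 to 0.13 (a mouse left out) and 0.22 (Fabp4 and Dpp4 at 0). Leukocyte medians against PreAs became -0.36 to 0.61 with a mouse left out (0.29 without mouse 1), 0.68 (only the cell types compared), 0.41 (thinned after gating), 0.26 (2 UMIs), 0.30 (Fabp4 and Dpp4 at 0) and 0.49 (without other types), and against ASCs -0.39 to 0.71 (a mouse left out) and -0.086 (thinned before gating). The mural median was 0.76 without other types and the erythroid one -1.55 to 0.29 with a mouse left out (both PreAs). Cell cycle medians became 0.029, 0.12 and 0.13 against PreAs (thinned after gating, before gating, without the deepest cells) and 0.31 and 0.89 against ASCs (thinned after and before gating).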

Other observations

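The genes in these paragraphs were chosen after their values were seen. Ptch1 and Hhip, genes of the Hedgehog pathway, were higher in F3+ cells, but no list tested that pathway. Ptch1, the receptor gene and a target of the pathway, was at 12.3, 11.1 and 23.9 CPM in F3+ cells of mice 1, 2 and 3 and at 3.26, 3.85 and 5.72 CPM in F3- cells (log2 fold change 1.76, standard error 0.323, adjusted p = 0.0151 by edgeR). Hhip, which encodes a protein that binds Hedgehog ligands, was at 19.3, 18.2 and 20.2 against 6.52, 3.85 and 5.01 CPM (1.97, standard error 0.296, adjusted p = 0.00555). Both groups were apart for Ptch1 and Hhip. The pathway's transcription factor gene Gli1 did not pass the test (0.96, adjusted p = 0.333). Against ASCs Hhip was at 13 ± 1.64 against 0.213 ± 0.140 CPM and Gli1 at 10.7 ± 2.64 against 0.400 ± 0.146 CPM, and both were also above PreAs.

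Several further genes were lower in F3+ cells. The chemokine gene Ccl7 was at 880, 1362 and 1339 CPM against 972, 2388 and 2315 CPM (log2 fold change -0.65, adjusted p = 0.00873 by edgeR), and the cytokine gene Il6 at 268, 414 and 623 against 368, 620 and 665 CPM (-0.42, adjusted p = 0.0477). Ptx3, Isg15, Ifit1 and Sult1e1, the last of which encodes an estrogen sulfotransferase, had log2 fold changes of -0.72, -0.66, -0.90 and -0.76 (adjusted p = 0.00124, 0.0185, 0.00881 and 0.00217 by edgeR) and were lower in F3+ cells of all 3 mice. In all Clec11a+ Fmo2+ cells Sult1e1 was at 507, 791 and 210 CPM against 52.2, 102 and 43.1 CPM in PreAs. Igfbp3 was lowest in mouse 1 in every cell type, with 46.8, 188 and 160 CPM in Clec11a+ Fmo2+ cells.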
